A study of Mus musculus with 12 samples.

Results

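The comparison described here is that of solvent-treated ET cells after 6 h with solvent-treated ET cells after 2 h. It rests on 4 of the series' 12 arrays, replicates 1 and 2 of each time, chosen by sample title, and on the 15762 of 22626 probe sets (a probe set is the group of array probes that reports 1 transcript) whose mean log2 value over the 12 arrays was 4 or more. The labels describe ET as murine cortical thymic epithelial cells of fetal origin, kept as a line. All cells were grown to 80 to 90% confluence in DMEM with 10% fetal calf serum, washed, and given fresh medium of the same kind with either the solvent 1,4-dioxane at 0.05% by volume or 5 nM TCDD, the dioxin whose cellular receptor is the transcription factor AhR. RNA was taken after 2, 4 or 6 h, which made 6 groups of 2 arrays. There was no array of cells before the medium change, so the solvent comparison shows how control cells differ between 6 h and 2 h after it. The arrays of a group are described as biological duplicates, but the repeated step is not named, and p-values here measure only how far such arrays lie apart, which may be technical. The labels of both 6 h solvent arrays contradict themselves: title and time field give 6 h, description and treatment protocol give 4 h, and the title was followed.

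When serum-fed cells receive fresh medium, growth factor receptors signal through the ERK kinase cascade and through actin to a small class of genes that need no new protein to be transcribed. These immediate early genes, such as Fos, Egr and Nr4a family members, encode mostly unstable transcription factors and feedback inhibitors, and their RNA is usually present only briefly. Delayed programmes, among them ribosome production and the preparation of DNA replication, are known to follow. Thymic epithelium supports T cell development, and its cortical form is defined by genes such as Foxn1, Psmb11 and Prss16.

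Values are log2 RMA values, on which a difference of 1 is a doubling, and a difference is always 6 h minus 2 h within replicate number, so that pair 1 is replicate 1 at 6 h minus replicate 1 at 2 h. The 4 arrays had the same median, 5.1, and a displacement common to all genes would go unseen. Replicate 2 differed from replicate 1 at both times: the metallothionein Mt1, a zinc-binding protein, read 7.3 and 7.4 on the replicate 1 arrays at 2 h and 6 h but 10.5 and 10.8 on the replicate 2 arrays, and 7.2 and 7.4 on the solvent arrays of 4 h; a dimmer probe set of Mt1 read 4.5 and 4.6 on replicate 1 and 5.9 and 5.0 on replicate 2. Subtraction within replicate number removes a constant offset of this kind; its part in the results was not tested. Replicate 2 at 2 h also stood apart among the 6 solvent arrays: 46 genes were at least 1 above and 19 at least 1 below all the other solvent arrays there. The same counts were 13 and 14 for replicate 2 at 6 h, and at most 2 of either kind for each of the other 4 arrays.

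Several defining markers of cortical epithelium were absent or near the filter. Of 12 cortical thymic epithelial markers 8 were tested, while Psmb11, Prss16, Ly75 and Krt18 were below the level filter or absent from the array. Foxn1 read 4.1 and 4.6 at 2 h and 4.2 and 4.5 at 6 h, near the filter. Cxcl12, of the same cortical list, was bright. A probe set of Cxcl12 other than its brightest read 10.5 and 10.4 at 2 h and 10.9 and 10.7 at 6 h. Of the 9 general epithelial markers 4 were tested, with Epcam, Cdh1 and Cldn7 below the filter, as were 4 of 11 for medullary thymic epithelium. All 16 fibroblast and mesenchyme markers were tested, with Col1a1 between 11.7 and 12.4 and Vim between 12.3 and 12.5 on the 4 arrays. For thymocytes 5 of 9, for myeloid cells 4 of 8 and for endothelium 1 of 7 markers were tested. The median difference over the tested markers was 0.07 for cortical, -0.17 for medullary and -0.10 for general epithelium, 0.03 for fibroblasts and mesenchyme, -0.15 for thymocytes, -0.05 for myeloid cells and -0.25 for the single endothelial gene. In RNA from a whole culture, fewer cells of a type and less RNA per cell cannot be told apart.

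Control cells at 6 h were not separated from control cells at 2 h for any probe set by the model: 0 of 15762 passed at an adjusted p under 0.05 (percent called 0.0), and the lowest adjusted p was 0.625 (limma with the replicate number as a block, Benjamini-Hochberg over all tested probe sets). At an unadjusted p under 0.05 there were 1194 probe sets (7.58%), of which 826 (5.24%) were higher and 368 (2.33%) lower at 6 h. By the size of the pair differences alone, 247 probe sets (1.57%) were higher and 51 (0.324%) lower at 6 h by 0.5 or more in both pairs. Everything named below is therefore given as a measured value, and no gene is said to have changed unless it passed.

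The solvent pairs differed from each other. Across the 15762 probe sets, the difference in pair 1 and that in pair 2 correlated at 0.05 (Pearson, a description across probe sets, which share arrays and are not independent). Pair 1 of solvent correlated at 0.49 with pair 1 of TCDD, and pair 2 of solvent at 0.40 with pair 2 of TCDD, which use no array in common; pair 2 of solvent and pair 1 of TCDD correlated at 0.02, and pair 1 of solvent and pair 2 of TCDD at 0.40. The 2 pairs of TCDD correlated at 0.46, so a low correlation between replicate pairs was not seen with TCDD. The signs were the same in both solvent pairs for 3298 probe sets higher (20.9%) and 3099 lower (19.7%) at 6 h, and opposite for 5465 (34.7%). A difference of 1 or more, in either direction, occurred in 150 probe sets in pair 1 and in 403 in pair 2.

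**Figure D1:**
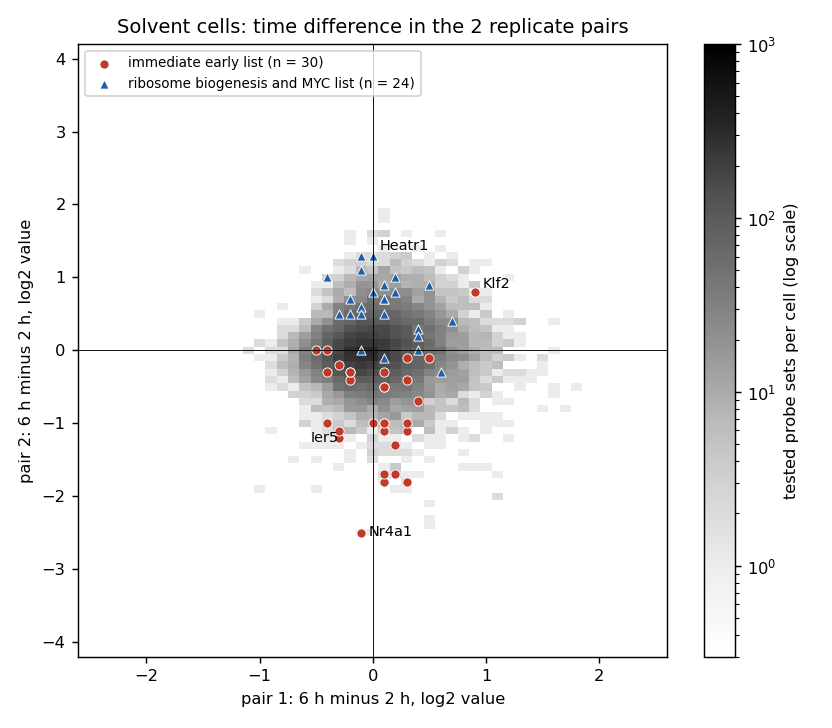
Difference between 6 h and 2 h in solvent for all 15762 tested probe sets (grey, number per cell on a log scale), pair 1 on the horizontal and pair 2 on the vertical axis, both in log2 values. Genes of the immediate early list (red circles, 30) spread downward in pair 2, to -2.5 for Nr4a1, and genes of the ribosome biogenesis and MYC list (blue triangles, 24) upward, while in pair 1 the 2 lists lay between -0.5 and 0.9.

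Some genes differed by 0.5 or more in the same direction in both pairs. With 1 probe set per gene, these were 124 of 9391 genes (1.32%) higher at 6 h and 36 (0.383%) lower. In the single pairs, 9.39% (pair 1) and 11.0% (pair 2) of all genes were higher by this much. Lower by this much were 4.40% and 9.52%. The shares that unrelated pairs would give were not counted, so no shared response is read from these genes. Among the genes higher at 6 h, the 15 with the largest smaller pair difference had a median difference of 0.90, unadjusted p from 0.000646 to 0.0754 and an adjusted p of 0.625. They were chosen by these differences, so their sizes are a description.

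Il33, an alarmin cytokine of epithelial and stromal cells, read 4.0 and 5.3 at 2 h (replicates 1 and 2) and 4.9 and 6.5 at 6 h, a difference of 1.05 (SE 0.50, 2.07-fold). The 2 h and 6 h arrays of Il33 overlapped, since replicate 2 at 2 h exceeded replicate 1 at 6 h. Otud6b, a deubiquitinase, read 6.2 and 6.1 at 2 h and 6.9 and 7.4 at 6 h (difference 1.00, SE 0.18, unadjusted p = 0.000997). Rngtt, the enzyme that caps messenger RNA, read 4.6 and 4.8 at 2 h and 5.4 and 5.9 at 6 h (difference 0.95, SE 0.16, unadjusted p = 0.000646). For both of these genes the 6 h arrays lay above the 2 h arrays, as they did for 12.5% of all tested probe sets. The genes were picked for wide differences in both pairs, so this was likely from the choice alone.

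Usp1, the deubiquitinase of the Fanconi anaemia DNA repair pathway, read 7.1 and 6.9 at 2 h and 7.9 and 8.0 at 6 h; its 2 other tested probe sets differed by 0.55 and 0.65. Caprin1, an RNA-binding protein of stress granules, read 8.8 and 8.7, then 9.5 and 9.6, and its 5 other probe sets differed by 0.15 to 0.60, all in the same direction. Zmpste24, the protease that matures lamin A, read 6.5 and 6.7 at 2 h and 7.4 and 7.6 at 6 h. These 3 genes had no overlap between the times, as did 12.5% of all tested probe sets in this direction. Here, too, the choice of the genes made this likely.

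Ormdl1, a regulator of sphingolipid synthesis, read 5.2 and 5.3 at 2 h and 6.2 and 6.1 at 6 h (difference 0.90). Antxr2, an anthrax toxin receptor that binds matrix proteins, read 5.6 and 5.8, then 6.5 and 6.7. Rhot1, a mitochondrial transport GTPase, read 6.2 and 6.6, then 7.1 and 7.3. Vps50, a subunit of an endosome recycling complex, read 5.2 and 5.7, then 6.2 and 6.4. In each of these the later arrays were the higher ones, which was again likely from the choice.

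Tada1, a subunit of the SAGA coactivator, read 4.5 and 4.1 at 2 h and 5.2 and 5.1 at 6 h, and Aftph, an endosomal sorting protein, read 5.3 and 4.9, then 6.0 and 5.7. Zfp207, a zinc finger protein of the mitotic spindle and splicing, read 7.8 and 8.3, then 8.7 and 9.2, but its 2 other tested probe sets differed by -0.30 and -0.05. Klf2, a zinc finger transcription factor, read 6.5 and 6.0, then 7.4 and 6.8. Cyp1b1, an AhR-induced monooxygenase, read 9.8 and 9.7 at 2 h, 10.1 and 10.0 at 4 h and 10.6 and 10.4 at 6 h in these cells without TCDD (6 h minus 2 h 0.75, SE 0.19, unadjusted p = 0.00648), and its other probe set differed by 0.60.

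Genes lower at 6 h in both pairs had smaller differences. The 15 leading ones had a median difference of -0.65, unadjusted p from 0.00157 to 0.132 and adjusted p from 0.625 to 0.641. Notch3, a receptor of the Notch pathway, read 6.2 and 6.1 at 2 h, 6.0 and 6.0 at 4 h and 5.6 and 4.8 at 6 h (6 h minus 2 h -0.95, SE 0.22, unadjusted p = 0.00397); a dimmer probe set of the gene differed by -0.15. Krt5, a basal and medullary epithelial keratin, read 5.3 and 5.3, then 4.7 and 4.3 (difference -0.80, SE 0.16). Both genes had all 6 h values below the 2 h values, as 10.5% of all tested probe sets did. The choice of the genes made this likely.

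Hmox1, the haem-degrading oxygenase of the NRF2 response, had the largest mean difference of the 15, -1.20 (SE 0.44), but it read 8.1 and 10.2 at 2 h and 7.6 and 8.3 at 6 h. Its groups overlapped, and pair 2 (-1.9) was well apart from pair 1 (-0.5). Rock1, a kinase that drives actomyosin contraction, read 6.3 and 6.8 at 2 h and 5.7 and 5.8 at 6 h, a difference of -0.80 (SE 0.17), and 2 further probe sets differed by -0.25 and -0.50. Nfat5, the transcription factor of osmotic stress, read 6.7 and 7.0, then 6.2 and 5.7, and Kmt2e, a chromatin-binding protein, 7.5 and 7.1, then 6.9 and 6.5.

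The remaining genes of this direction were dim or moderate. Zfp703, a transcriptional repressor, read 6.8 and 7.5 at 2 h and 6.2 and 6.5 at 6 h. Nppb, a natriuretic peptide, read 4.8 and 5.1, then 4.1 and 4.5. Tspan15, a tetraspanin that regulates the sheddase ADAM10, read 6.0 and 6.0, then 5.4 and 5.4 (difference -0.60, SE 0.12). Map3k12, a stress kinase best known in neurons, read 7.7 and 7.6, then 7.1 and 6.8, with another probe set at 0.20. Clstn3, Krtap12-1, Omg, Thsd1 and Ier5l differed by -0.60 to -0.65, and the other probe set of Thsd1 differed by 0.10.

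The same genes were read in TCDD-treated cells, which share no array with the solvent pairs. Of the 15 genes higher at 6 h, 15 were higher on the mean of the TCDD pairs as well and 11 in both of them, with a median difference of 0.65. Of the 15 lower genes, 12 were lower on the mean and 8 in both pairs, with a median of -0.25. Kmt2e, Nfat5 and Rock1 were the exceptions on the mean: they were higher at 6 h in both TCDD pairs. Over all genes the median TCDD difference was -0.05, and the share of all genes with these signs was not counted. Solvent and TCDD pairs of the same replicate number were correlated across all probe sets. Some agreement was therefore likely for any genes picked in this way. In the 4 h solvent arrays, 21 of the 30 genes had a mean strictly between those of 2 h and 6 h. The genes were picked for a wide gap between these times, so a value inside it was likely from the choice alone. The share among all genes was not counted, and no course over time is read from it. The 4 h arrays resembled replicate 1 in Mt1, so they do not follow both pairs equally.

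**Figure D2:**
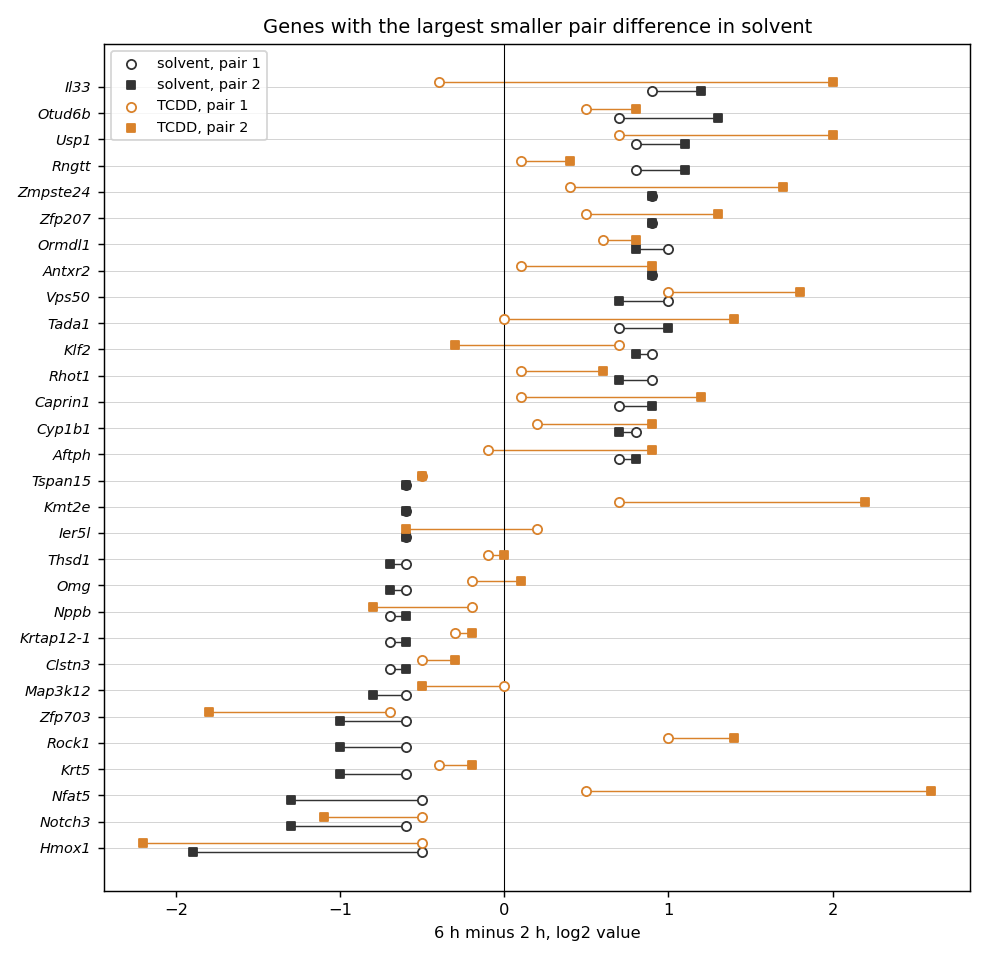
Difference between 6 h and 2 h, in log2 values, for the 30 genes of the naming rule, in solvent (dark) and TCDD (orange), with pair 1 as open circles, pair 2 as filled squares and a line between the pairs of a treatment. All solvent points lie on the side their gene was chosen for; Kmt2e, Nfat5 and Rock1 have both TCDD points on the other side.

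The immediate early list differed between the pairs. Of the 30 tested members of the immediate early list, 18 were lower at 6 h by 0.5 or more in pair 2 (60.0%, against 9.52% of all genes) and 1 in pair 1 (3.33%, against 4.40%). The list's median difference was -0.85 in pair 2 and 0.10 in pair 1, where the median of all genes was 0.0 in each. The TCDD pairs were split in the same way: 24 of the 30 genes (80.0%, against 15.1% of all genes) were lower by 0.5 or more in pair 2, with a median of -1.20, and 3 (10.0%, against 4.67%) in pair 1, with a median of 0.0. Over both solvent pairs, 0 members passed the test, 9 were lower and 1 was higher in both, and 17 had pairs of opposite sign (56.7%, against 34.8% of all genes).

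Nr4a1, an orphan nuclear receptor induced within minutes by many stimuli, read 6.4 and 8.6 at 2 h, 6.3 and 6.2 at 4 h and 6.3 and 6.1 at 6 h. Only replicate 2 at 2 h was high. Fos, a subunit of AP-1, read 4.4 and 6.0 at 2 h, 4.5 and 4.4 at 4 h and 4.7 and 4.9 at 6 h. Atf3, a stress-induced bZIP repressor, read 4.4 and 6.8, 4.2 and 4.1, and 4.5 and 5.1 at these times. In both genes replicate 2 at 2 h again stood above the other 5 solvent arrays.

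Egr2, a zinc finger factor, read 3.8 and 5.6 at 2 h and 3.9 and 3.8 at 6 h, and Srf, the serum response factor itself, 7.1 and 8.7, then 7.4 and 6.9. Phlda1, a growth factor-induced regulator of cell survival, read 9.2 and 11.2, then 9.4 and 9.5. Ier3, an ERK-regulated survival gene, read 9.2 and 11.3, then 9.3 and 10.3, so that replicate 2 kept the higher level at 6 h. Junb, an AP-1 subunit, read 7.9 and 9.2, then 7.6 and 8.0, and Egr1 7.4 and 8.7, then 7.7 and 7.7. Pair 1 of these 6 genes lay between -0.3 and 0.3.

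Myc, the growth-promoting transcription factor, read 8.4 and 9.4 at 2 h and 8.5 and 8.9 at 6 h. Jund, an AP-1 subunit, was among the members lower in both pairs, at 9.4 and 9.9, then 9.1 and 8.8 (difference -0.70, SE 0.31). Maff, a small MAF protein, read 7.1 and 8.1, then 6.7 and 7.1 (difference -0.70, SE 0.26, unadjusted p = 0.0318). Nr4a2 read 5.5 and 5.5, then 5.1 and 5.2 (difference -0.35, SE 0.13, unadjusted p = 0.0295). Klf2, named above, was the member higher in both pairs.

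Lists of the same signalling route were also compared by pair. Errfi1, an inhibitor of the EGF receptor, read 7.5 and 10.6 at 2 h and 8.0 and 8.5 at 6 h, a pair 2 difference of -2.1 beside 0.5 in pair 1. Dusp6, an ERK phosphatase, read 7.6 and 9.7, then 7.9 and 8.3. Of 12 ERK feedback genes tested, 5 were lower by 0.5 or more in pair 2 (41.7%, against 9.52% of all genes) and 1 in pair 1 (8.33%, against 4.40%). With TCDD these were 8 (66.7%, against 15.1%) and 1 (8.33%, against 4.67%). The EGF family ligands Ereg and Hbegf read 4.9 and 8.5, then 5.9 and 6.9, and 6.9 and 9.1, then 7.1 and 7.7; of the 5 tested EGF receptor family genes and ligands 2 were lower by 0.5 or more in pair 2 (40.0%) and 0 in pair 1.

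Ptgs2, the inducible prostaglandin synthase, had one of the widest gaps: it read 5.6 and 9.6 at 2 h, 5.4 and 5.6 at 4 h and 6.1 and 7.2 at 6 h. The other genes of the prostaglandin list stayed within narrower limits, and its median was 0.0 in pair 1 and 0.10 in pair 2 over 7 genes. Among targets of SRF and YAP, the factors that read actin and cell tension, Ccn2, a secreted matricellular protein, read 9.6 and 12.4, then 9.6 and 9.9. Fhl2, a LIM-domain coactivator, read 6.5 and 8.3, then 6.7 and 6.4, and Ankrd1 8.1 and 10.3, then 9.2 and 8.3. Actb, cytoplasmic actin, lay between 13.7 and 13.8 on all 4 arrays in its brightest probe set, near the top of the scale, but another probe set read 8.4 and 7.9, then 7.4 and 6.0 (difference -1.45, SE 0.32, unadjusted p = 0.00306, adjusted p = 0.625). The probe sets of Actb therefore disagreed. Vcl, vinculin, differed by 0.5 and 0.3 in the pairs. Of the list's 20 genes 6 were lower by 0.5 or more in pair 2 (against 9.52% of all genes) and 0 in pair 1 (against 4.40%). By sign alone, 6 of the 20 genes were higher and 3 lower in both pairs, against 20.4% and 20.6% of all genes. The pairs had opposite signs for 7 of them, so the list had no common direction over both pairs.

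**Figure D3:**
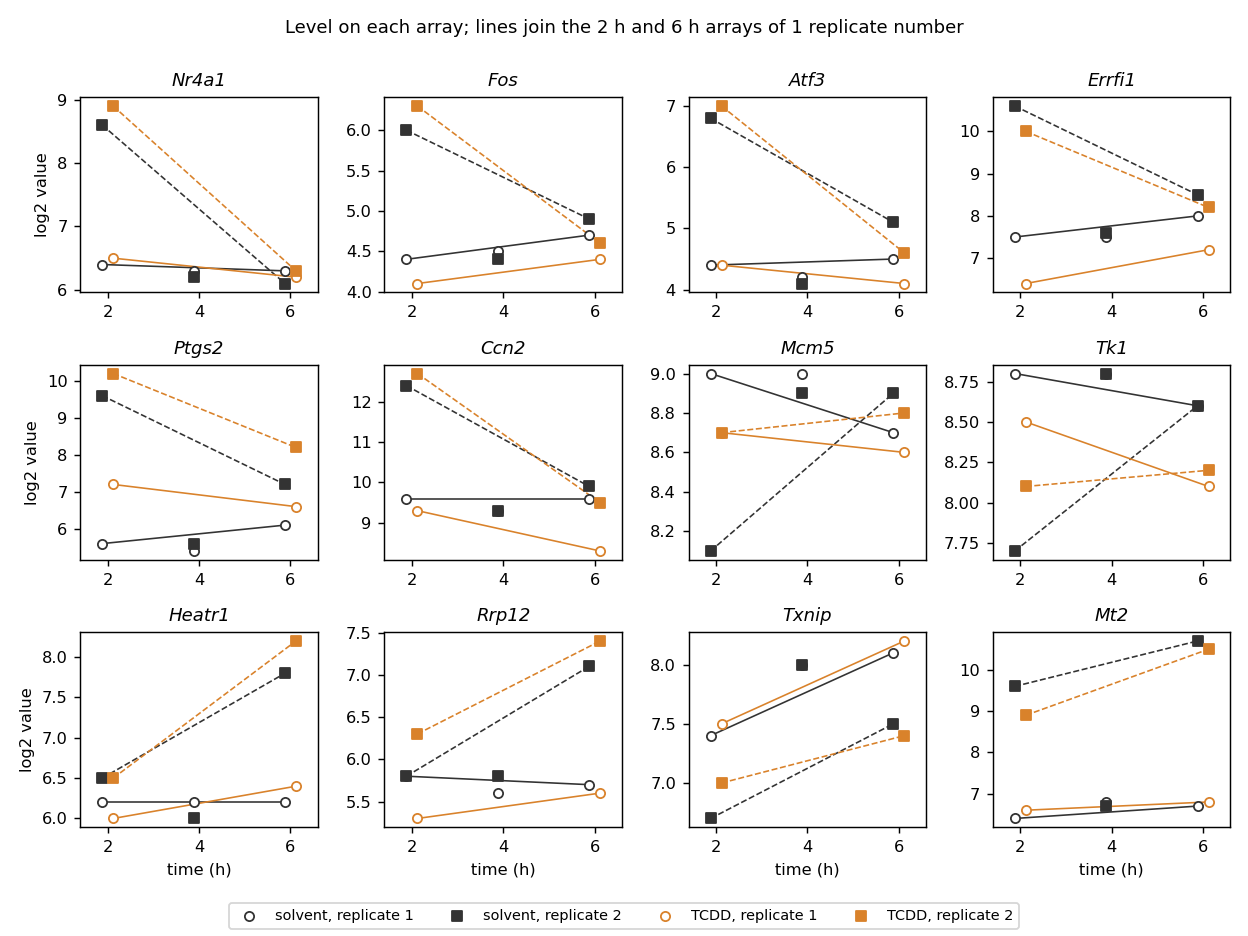
Log2 value of 12 genes on each array at 2, 4 and 6 h in solvent (dark) and at 2 and 6 h with TCDD (orange); open circles are replicate 1, filled squares replicate 2, and lines join the 2 h and 6 h arrays of a replicate number. Nr4a1, Fos, Atf3, Errfi1, Ptgs2 and Ccn2 are high on replicate 2 at 2 h in both treatments, Heatr1 and Rrp12 on replicate 2 at 6 h, and Mt2 on replicate 2 at both times.

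The split was also put into a contrast added after the data were seen: the difference over time in replicate 2 minus that in replicate 1, averaged over solvent and TCDD. Each replicate number occurs once per treatment and time, so solvent and TCDD arrays served as the repeats. These are not independent: replicate 2 minus replicate 1 correlated between solvent and TCDD at 0.37 at 2 h and 0.71 at 6 h. The p-values of this contrast therefore do not measure the spread between independent repeats. The contrast was -2.35 for Nr4a1, -1.95 for Atf3, -2.6 for Errfi1 and -2.35 for Ccn2, each in the same direction in both treatments. In the model with the usual variance prior, 0 of 15762 probe sets passed (percent called 0.0; adjusted p = 0.292 at the lowest), although 2272 (14.4%) had an unadjusted p under 0.05. With limma's robust variance prior 47 passed (percent called 0.298), 42 of them with the lower difference in replicate 2. These probe sets held 40 genes with a symbol, of which 22 were in no list. The other 18 included 7 of the 30 immediate early genes (Nr4a1, Phlda1, Atf3, Srf, Btg2, Klf10 and Fos), 3 of 12 ERK feedback genes and 4 of 20 SRF and YAP targets. With the usual prior, 0 passed without each of the 8 arrays in turn, with a filter at 5 and with no filter. Mt1 separated the same replicates at both times, and its part in these differences was not tested.

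Promoter sequences are shown for 4 members of these lists, as a description of short DNA motifs near the start site. Windows of 250 bases before each RefSeq start (assembly GRCm38.p6) were searched on both strands for 4 motifs: the CArG box, which SRF binds, the cyclic AMP response element TGACGTCA, the E-box CACGTG, which MYC binds, and the metal response element TGCACNC or TGCGCNC. Matches of different motifs may overlap. A gene was counted if the window of any of its start sites held a match, so a counted match may lie downstream of another start. The sequences shown are only from a gene's most upstream start. A CArG box was present for 3 of 23 immediate early genes with a window (13.0%; Egr2, Srf and Zfp36) and for 5 of 16 SRF and YAP targets (31.2%), against 1.47% of 7575 tested genes with a window and 1.47% of all 32851 windows. The cyclic AMP element was present for 3 of 23 immediate early genes (13.0%; Btg2, Maff and Plk2), against 2.85% of tested genes and 1.55% of all windows. The E-box was present for 1 of 18 ribosome biogenesis and MYC genes (5.56%), against 9.9% of tested genes; the metal response element was present for 5 of 7 metallothionein and zinc genes (71.4%), against 33.8%. A match is a description of letters and not a shown binding site. The SRF and YAP list was made of known targets, so CArG boxes among its members are no independent result. Whether any motif had a part in the differences was not tested. The runs below are 150 bases long, 5′ to 3′ on the gene's strand, with the motif in capitals; the CArG boxes of Srf start at -82 and -62, that of Zfp36 at -58 and that of Fhl2 at -96 from the start site, and the element of Plk2 at -62.
Srf, chr17:46556163-46556312, minus strand: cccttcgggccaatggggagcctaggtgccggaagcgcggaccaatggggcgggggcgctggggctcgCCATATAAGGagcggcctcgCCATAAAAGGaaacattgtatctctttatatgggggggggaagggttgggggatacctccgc
Zfp36, chr7:28379229-28379378, minus strand: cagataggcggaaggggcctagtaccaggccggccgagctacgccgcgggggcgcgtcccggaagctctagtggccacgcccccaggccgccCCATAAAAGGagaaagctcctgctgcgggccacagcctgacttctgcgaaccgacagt
Fhl2, chr1:43196762-43196911, minus strand: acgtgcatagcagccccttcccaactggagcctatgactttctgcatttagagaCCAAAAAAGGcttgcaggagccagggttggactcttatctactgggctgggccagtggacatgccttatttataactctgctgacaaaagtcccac
Plk2, chr13:110394894-110395043, plus strand: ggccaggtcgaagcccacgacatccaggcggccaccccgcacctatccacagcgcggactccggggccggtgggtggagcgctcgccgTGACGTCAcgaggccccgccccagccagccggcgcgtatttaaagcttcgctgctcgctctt
In pair 2, Srf differed by -1.8 and Fhl2 by -1.9. Plk2, a polo-like kinase, differed there by -1.0 (8.2 and 9.6 at 2 h, 8.3 and 8.6 at 6 h). Zfp36, which destabilises AU-rich messenger RNA, differed by -0.1 (5.5 and 6.0, then 5.8 and 5.9). The genes shown are only a part of those with a match. Vcl has a CArG box too, and it read higher at 6 h in both pairs, as given above.

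Genes of ribosome production lay higher at 6 h mainly in replicate 2. Of the 24 tested genes of the ribosome biogenesis and MYC list, 17 were higher by 0.5 or more in pair 2 (70.8%, against 11.0% of all genes) and 3 in pair 1 (12.5%, against 9.39%); 0 were lower by 0.5 in either pair. The medians were 0.65 and 0.10. With TCDD, 17 (70.8%, against 16.4%) were higher in pair 2 and 2 in pair 1, with medians of 0.60 and 0.0. Over both solvent pairs 10 of the 24 genes were higher in both (41.7% against 20.4% of all genes) and 0 lower in both (against 20.6%); 0 passed the test.

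Heatr1, a factor for ribosomal RNA transcription, read 6.2 and 6.5 at 2 h, 6.2 and 6.0 at 4 h and 6.2 and 7.8 at 6 h, so that only replicate 2 at 6 h was high. Rrp12, needed for export of the small subunit, read 5.8 and 5.8, then 5.7 and 7.1. Srm, the spermidine synthase and a MYC target, read 9.9 and 9.8, then 9.8 and 10.9, and Rrp9, a component of the small nucleolar complex, 7.9 and 7.9, then 7.5 and 8.9. In these 4 genes the pair 1 difference lay between -0.4 and 0.0.

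In this list 4 genes (16.7%, against 4.99% of all genes) were higher with an unadjusted p under 0.05. Ltv1, a small subunit assembly factor, read 6.5 and 7.4 at 2 h and 7.0 and 8.3 at 6 h (difference 0.70, SE 0.26, unadjusted p = 0.0316). Ncl, nucleolin, read 9.8 and 10.1, then 10.5 and 10.5 (difference 0.55, SE 0.22, unadjusted p = 0.0435). Nolc1 read 7.6 and 7.8, then 7.8 and 8.6, and Nop58, a core protein of box C/D particles, 7.3 and 7.8, then 7.7 and 8.1. Rrs1 was high on replicate 2 at both times, at 7.5 and 8.8, then 7.6 and 8.7, and so had a difference of 0.0.

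Several genes of DNA replication were low on replicate 2 at 2 h. Of 27 tested G1/S genes 14 were higher at 6 h by 0.5 or more in pair 2 (51.9%, against 11.0%) and 0 in pair 1, with medians of 0.50 and -0.10. Mcm5, a subunit of the replicative helicase, read 9.0 and 8.1 at 2 h, 9.0 and 8.9 at 4 h and 8.7 and 8.9 at 6 h. Tk1, thymidine kinase, read 8.8 and 7.7, then 8.6 and 8.6, and Cdc6, a replication licensing factor, 6.4 and 5.4, then 6.2 and 6.4. In TCDD-treated cells 6 of the 27 genes (22.2%, against 16.4%) were higher in pair 2 and 0 in pair 1, and the list medians were 0.10 and -0.10.

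The mitotic list had no common direction: of 20 G2/M genes 3 were higher and 1 lower by 0.5 in pair 1, and 0 higher and 6 lower in pair 2. Mki67, a marker of cycling cells, read 6.5 and 6.2 at 2 h and 6.0 and 5.1 at 6 h (difference -0.80, SE 0.21, unadjusted p = 0.00674), with 5.7 and 6.5 at 4 h. Nusap1, a spindle protein, differed by 0.5 and -1.0 in the 2 pairs (7.3 and 7.4, then 7.8 and 6.4). Of 15 p53 targets and CDK inhibitors, 5 were higher and 2 lower in both pairs (33.3% and 13.3%, against 20.4% and 20.6% of all genes). Cdkn1a, the CDK inhibitor p21, read 6.0 and 7.3, then 5.6 and 6.6 (difference -0.55, SE 0.16, unadjusted p = 0.0119, adjusted p = 0.625), but its dimmer probe set read 4.4 and 5.1, then 4.9 and 4.7, with pairs of opposite sign.

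**Figure D4:**
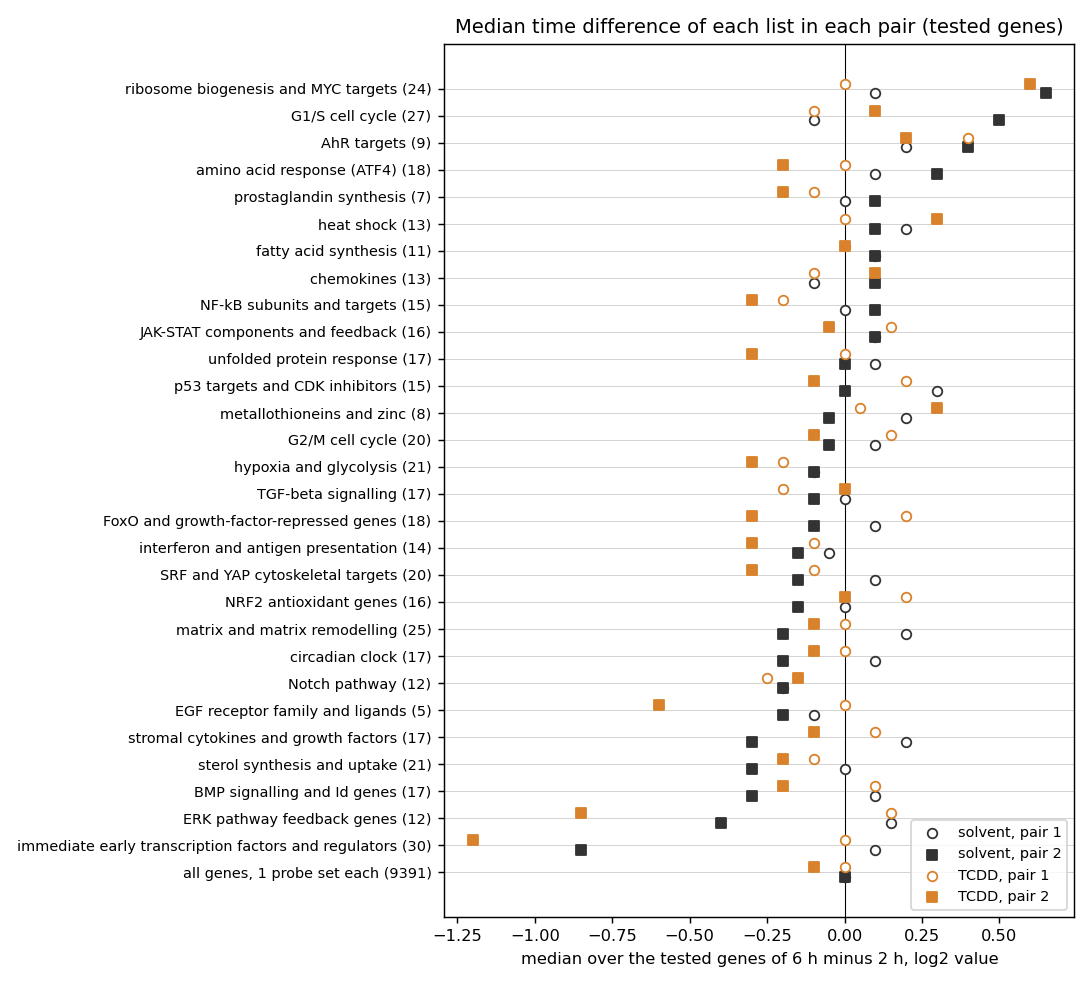
Median over the tested genes of each of the 29 pathway lists (number of tested genes in brackets) of the difference between 6 h and 2 h, in log2 values, in solvent pairs 1 and 2 (dark) and TCDD pairs 1 and 2 (orange). The immediate early list lies lowest and the ribosome biogenesis and MYC list highest in both pairs 2, at -0.85 and 0.65 in solvent, while pair 1 medians of all lists in solvent lie between -0.2 and 0.3.

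Metabolic lists differed between the pairs to a lesser degree. Of 21 genes of sterol synthesis and uptake, 9 were lower by 0.5 or more in pair 2 (42.9%, against 9.52%) and 0 in pair 1; Sqle, squalene epoxidase, read 6.0 and 7.4 at 2 h and 6.3 and 6.8 at 6 h. Msmo1, a sterol oxidase, had pairs of opposite sign, with 5.5 and 7.7, then 6.6 and 6.8. The fatty acid synthesis list (11 genes) had medians of 0.10 in each pair, and Acly, which makes cytosolic acetyl-CoA, read 8.8 and 8.8, then 9.2 and 9.2 (difference 0.40, SE 0.14, unadjusted p = 0.0263). Of 21 genes of hypoxia and glycolysis 7 were lower and 1 was higher in both pairs (33.3% and 4.76%, against 20.6% and 20.4% of all genes), with a median of -0.10.

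Txnip, a glucose-sensing inhibitor of thioredoxin, gave the most even difference of the FoxO and growth-factor-repressed list. It read 7.4 and 6.7 at 2 h, 8.0 and 8.0 at 4 h and 8.1 and 7.5 at 6 h (difference 0.75, SE 0.14, unadjusted p = 0.00114, adjusted p = 0.625), and 7.5 and 7.0, then 8.2 and 7.4 with TCDD. Of the 18 genes of that list 3 were higher and 2 lower in both pairs (16.7% and 11.1%, against 20.4% and 20.6% of all genes). Sgk1, a serum-induced kinase, read 7.2 and 9.2, then 7.3 and 8.2. Of 17 clock genes 4 were higher and 3 lower in both pairs (23.5% and 17.6%), near the shares of all genes. Bhlhe40, a repressor of the clock, read 6.1 and 7.8, then 5.8 and 6.5 (difference -0.80, SE 0.27, unadjusted p = 0.0212).

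The stress lists differed from each other. Of 13 heat shock genes 4 were higher and 2 lower in both pairs (30.8% and 15.4%, against 20.4% and 20.6% of all genes); Hsph1, a large HSP70-related chaperone, read 7.7 and 8.1 at 2 h and 8.1 and 9.3 at 6 h (difference 0.80, SE 0.26), and its other probe set differed by 0.95. Hspd1, the mitochondrial chaperonin, read 10.0 and 10.2, then 10.5 and 10.9. Hspa1b, the inducible HSP70, read 6.9 and 7.2, then 8.6 and 6.4, high on replicate 1 at 6 h alone. Of 18 genes of the amino acid response through ATF4, 7 were higher and 1 lower in both pairs (38.9% and 5.56%), with a median of 0.20 and 6 higher by 0.5 or more in pair 2 (33.3%, against 11.0%) and 0 in pair 1. Among the higher ones was Chac1, a glutathione-degrading enzyme, at 6.7 and 6.3, then 7.1 and 7.4 (difference 0.75, SE 0.25, unadjusted p = 0.0221). The unfolded protein response list (17 genes) had medians of 0.10 and 0.0. In both pairs 3 of its genes were higher and 0 lower (17.6% and 0.0%, against 20.4% and 20.6% of all genes).

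Of 16 NRF2 antioxidant genes 6 were lower and 0 higher in both pairs (37.5%, against 20.6%), Hmox1 among them, and Osgin1 read 7.6 and 8.5, then 7.2 and 7.5. Among 8 metallothionein and zinc genes, Mt2 read 6.4 and 9.6 at 2 h and 6.7 and 10.7 at 6 h (difference 0.70, SE 0.37), Slc30a1, the zinc exporter, 4.5 and 5.8, then 4.1 and 4.6 (difference -0.80, SE 0.24), and Slc39a14, a zinc importer, 6.4 and 6.5, then 6.9 and 6.9 (difference 0.45, SE 0.13). A dimmer probe set of Slc39a14 differed by -0.15 (pairs -0.4 and 0.1), the other way. Of 9 AhR targets 4 were higher and 0 lower in both pairs (44.4% and 0.0%, against 20.4% and 20.6% of all genes). Cyp1a1, the best known of them, read 4.0 and 4.3, then 4.2 and 5.5 in solvent, near the filter, beside 9.3 to 10.4 on the 4 TCDD arrays of these times.

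The lists of cytokines, chemokines and their signalling differed from each other. Of 13 chemokines 5 were higher and 5 lower in both pairs (38.5% each, against 20.4% and 20.6% of all genes); Cxcl1 read 10.7 and 11.4 at 2 h and 11.5 and 11.8 at 6 h (difference 0.60, SE 0.19, unadjusted p = 0.0164), and Cxcl5 7.6 and 7.4, then 8.1 and 8.1. Of 17 stromal cytokines and growth factors 3 were higher and 4 lower in both (17.6% and 23.5%), near the shares of all genes. Hgf, the hepatocyte growth factor, read 5.4 and 5.6, then 5.8 and 6.4, and Igf1 5.5 and 6.0, then 6.1 and 6.5 (difference 0.55, SE 0.14, unadjusted p = 0.00686). Il6 was high on replicate 2 at both times, at 6.3 and 8.2, then 6.0 and 7.4. Of 15 NF-kB genes 4 were higher and 1 lower in both (26.7% and 6.67%); among the higher was Birc2, an inhibitor of apoptosis, at 5.3 and 5.1, then 6.1 and 5.7 (difference 0.70, SE 0.18).

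Of 16 genes of the JAK-STAT list 7 were higher and 2 lower in both pairs (43.8% and 12.5%, against 20.4% and 20.6% of all genes), with a median of 0.10; Socs3, a feedback inhibitor, read 7.8 and 7.2, then 8.0 and 8.3, and Cish, a related one, 5.7 and 6.1, then 5.1 and 5.7 (difference -0.50, SE 0.13). The interferon and antigen presentation list had 2 of 14 genes higher and 4 lower in both pairs (14.3% and 28.6%). Of 25 matrix genes 4 were higher and 3 lower in both, with Col1a2, a collagen I chain, at 0.1 in pair 1 and -0.2 in pair 2.

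Feedback genes of the TGF-beta family had several members lower at 6 h, none past the test. Smad7, an inhibitory SMAD protein, read 7.2 and 7.8, then 6.8 and 6.5 (difference -0.85, SE 0.26). Smad6, the other inhibitory SMAD, read 8.0 and 8.7, then 7.7 and 7.1 (difference -0.95, SE 0.32). Skil, a SMAD corepressor, read 7.4 and 8.7, then 7.2 and 7.2, and Id4, a BMP-induced inhibitor of bHLH factors, 4.4 and 5.3, then 4.1 and 4.2 (difference -0.70, SE 0.21). Of 17 TGF-beta genes 7 were lower and 2 higher in both pairs (41.2% and 11.8%, against 20.6% and 20.4% of all genes), and of 17 BMP and Id genes 6 were lower and 0 higher (35.3% and 0.0%). Differences of 0.5 or more downward lay mainly in pair 2: 6 TGF-beta genes (35.3%, against 9.52% of all genes) and 7 BMP and Id genes (41.2%) there, against 0 and 1 in pair 1. Pair 2 holds replicate 2 at 2 h, the array that stood apart, whose part in these counts was not tested. The Notch list had 7 of 12 genes lower and 0 higher in both pairs (58.3%), with a median of -0.15; beside Notch3, Hes1, a Notch target, read 5.0 and 6.2, then 4.8 and 5.0, and Heyl 4.3 and 4.4, then 4.0 and 3.9. These 3 of 12 genes had an unadjusted p under 0.05, beside 2.62% of all genes in this direction; the other 4 lower in both pairs differed by -0.10 to -0.35.

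In TCDD-treated cells the same comparison gave 1 probe set past the test (percent called 0.00634), with 2790 (17.7%) at an unadjusted p under 0.05. It was that of Cdkn1a, at 8.9 and 9.8 at 2 h and 6.1 and 6.9 at 6 h, a difference of -2.85 (SE 0.16, adjusted p = 0.0113), and this call was lost without the replicate block and without each array in turn. The other probe set of Cdkn1a differed by -1.35 with TCDD and did not pass (adjusted p = 0.168). The test of the TCDD difference against the solvent difference passed for 0 probe sets (percent called 0.0), with 676 (4.29%) at an unadjusted p under 0.05 and the lowest adjusted p at 0.223. Averaged over both treatments, 1 probe set passed (percent called 0.00634), again that of Cdkn1a (-1.70, SE 0.11, adjusted p = 0.0344), whose solvent part alone did not; this call, too, was lost without the block, with all 12 arrays and without each array in turn, and 3513 (22.3%) had an unadjusted p under 0.05. Solvent at 6 h against solvent at 4 h passed for 0 probe sets (percent called 0.0) in a fit to all 12 arrays. There 423 (2.68%) had an unadjusted p under 0.05, and the lowest adjusted p was 0.97. Those arrays were not paired by replicate number. With the 6 solvent arrays only, 0 passed and 1013 had an unadjusted p under 0.05 (limma, lowest adjusted p 0.731). These counts do not show that the 2 groups were alike.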

How the data were processed

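The authors deposited log2 values per probe set for 12 Affymetrix arrays, computed by RMA (per the submitters' processing notes); for software version and genome build, the entry is "not given in the sources used here". This method equalises the arrays' distributions. The log2 values carry 1 decimal, and no depth applies to arrays: 2 per group limit the precision. From 22690 probe sets, 64 controls were removed and 15762 with a mean of 4 or more were tested; 20380 had 1 gene symbol, and 9391 genes were tested, each by its brightest probe set. limma 3.58.1 in R 4.3.3 was fitted to the 8 arrays of 2 h and 6 h, with 4 group means and the replicate number (3 residual degrees of freedom, prior 3.68), and to all 12 arrays for 6 h against 4 h; p-values were adjusted by Benjamini-Hochberg, two-sided, at 0.05. The arrays were paired by replicate number. Replicate 2 minus replicate 1 correlated at 0.24 to 0.71 between every pair of the 4 groups. The value was highest between solvent and TCDD at 6 h. It was lowest, 0.24, between solvent at 2 h and 6 h, the pairing used here, and 0.26 between TCDD at 2 h and 6 h. Genes were named, in each direction, from those past the test, filled up to 15 by the largest smaller pair difference, and from 29 pathway and 7 marker lists. Members and lists were chosen with earlier results of these data known. The fit was tested on simulated data with the fitted variance prior. It recovered 41% of 100 changes of 1 and 93% of 100 changes of 2, with 9 false calls. A count of 0 therefore does not show that no gene changed by 1. Standard errors (SE) are from the fit.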

Additional observations from a re-analysis of the deposited data

Results flagged for a closer look

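For 6 genes named in the text both solvent pairs lay on one side and both TCDD pairs on the other, and the difference over time with TCDD minus that in solvent is given for each. It was 2.05 for Kmt2e, 2.45 for Nfat5 and 2.0 for Rock1, which were lower at 6 h in solvent by at least 0.5 in both pairs and higher with TCDD. It was 1.55 for Mki67 (solvent pairs -0.5 and -1.1, TCDD pairs 0.5 and 1.0) and 1.10 for Skil (solvent -0.2 and -1.5, TCDD 0.2 and 0.3). Socs3 was opposite, at -1.70 (solvent 0.2 and 1.1, TCDD -0.8 and -1.3). The test of the difference itself did not pass for any of the 6 (limma, adjusted p = 0.418 for Rock1 and 0.967 for the other 5). Among the 531 genes followed, 29 had this pattern of signs, many with differences of 0.1 or 0.2, the size of the rounding step.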

How the results depend on the processing

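The count of 0 for solvent at 6 h against 2 h stayed 0 under each alternative tried: without the replicate block (646 at an unadjusted p under 0.05, against 1194 with it), with all 12 arrays, with the 4 solvent arrays only, with other filters, variance priors or centring, and without each of the 8 arrays; unadjusted counts ran from 446 to 1707. The highest of these, 1707, was without a filter, on 22626 probe sets, where the main fit had 15762. The arrays left out in turn included replicate 2 at 2 h, which stood apart. The count of 1 for TCDD became 0 without the replicate block, with all 12 arrays (with or without the block) and with the 4 TCDD arrays only, 2 with an intensity trend, 4 with the robust prior and 8 with centred arrays; leaving out each array gave 0 to 0. The count of 1 for the average over treatments became 0 without the block and with all 12 arrays (with or without it), 2 with the trend, 6 with the robust prior and 13 with centred arrays; leaving out each array gave 0 to 0. The contrast of replicate 2 with replicate 1, chosen after seeing the data, gave 47 with the robust prior and 0 otherwise. The cause of these moves was not tested. Of 8947 values of 531 genes under the alternatives, 285 turned sign and 0 had an adjusted p under 0.05; of 504 values of the 30 genes of the naming rule, 0 turned sign.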

Other observations

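Genes outside the fixed lists were split between the replicates in the same way; they were picked after their values were seen. F3, the tissue factor that starts coagulation, read 7.2 and 9.2 at 2 h and 7.7 and 6.9 at 6 h in solvent, and 6.8 and 8.7, then 7.2 and 6.6 with TCDD. The difference over time in replicate 2 minus that in replicate 1 was -2.65 for F3 (limma with the robust prior, adjusted p = 0.0166, and 0.292 with the usual prior). As above, solvent and TCDD arrays served as the repeats in this contrast and are not independent.

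Rspo1, a secreted Wnt pathway enhancer, was low on replicate 2 at 6 h instead, at 5.6 and 5.7, then 5.9 and 3.8 in solvent and 5.7 and 5.3, then 6.1 and 4.2 with TCDD. Utp20, a ribosome assembly factor outside the list, read 6.3 and 6.2, then 6.4 and 7.8 in solvent and 6.3 and 6.2, then 6.4 and 8.1 with TCDD. Ung, a DNA repair glycosylase, read 5.7 and 4.6, then 5.1 and 5.7 in solvent.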
